A study of Mus musculus with 6 samples.

Results

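The tripartite motif (TRIM) genes encode a large family of ubiquitin ligases, and their RNA levels were described in stromal cells sorted from the inflamed mouse large intestine. Members were taken by name alone, as every gene in the deposited tables whose symbol is Trim followed by a number and at most 1 letter. This gave 66 of 24346 genes, and no measured value entered the choice. Of these 66 genes, 32 were expressed, meaning an FPKM (fragments scaled to transcript length and to a size factor of the library) of at least 1 in at least 3 of the 6 libraries.

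The 6 libraries came from 6 mice that were 12 weeks old and had been given 1% dextran sulfate sodium (DSS), which injures the colonic epithelium and causes colitis. The control group was Il10ra flox/flox (mice 8, 9 and 43), and the other group was Pdgfra cre; Il10ra flox/flox (mice 13, 23 and 25), called Pdgfra-cre here. Both groups carried the floxed alleles of Il10ra (the receptor chain that binds interleukin-10), and the cre recombinase was driven by Pdgfra, a fibroblast gene. No group with the cre and without floxed alleles was analysed here, so an effect of the cre itself and an effect of the deletion cannot be told apart. Live cells with Podoplanin and without CD45, CD31 or EpCAM were sorted from whole colons. Given a series title that points to type I interferon, the comparison asked which TRIM genes differ between the genotypes.

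A typical TRIM protein carries a RING domain that binds the ubiquitin-conjugating (E2) enzyme, a B-box and a coiled coil through which it assembles, and a variable C-terminal part that selects the target. Many members with a C-terminal PRY-SPRY domain act in antiviral defence and are themselves induced by interferon, while others serve in development, muscle, chromatin and the cytoskeleton. In fibroblasts, as in other cells that respond to interferon, the inducible members tag sensors of viral RNA and DNA, their adaptors or viral proteins with ubiquitin.

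The targeted gene gave little check of the labels: Il10ra was 0.418 FPKM in control 43 and listed at 0 in the other 5 libraries. Fibroblast markers were present in every library, with Col1a1 at 704 to 1201 FPKM. Pdgfra was at 178, 186 and 200 FPKM in controls 8, 9 and 43 and at 155, 120 and 174 in Pdgfra-cre 13, 23 and 25. Of 8 fibroblast markers, 1 lay lower (Pdgfra) and 1 higher (Dcn) in Pdgfra-cre without overlap. This was 25% of them, against 16.4% of all 11429 genes that met the threshold. Ptprc (CD45) lay at 0 to 1.04, Pecam1 (CD31) at 0.0741 to 0.856 and Epcam at 0 to 1.11 FPKM. Read totals are not given in the sources used here. The ratios of low values shared between libraries put the size factor used to scale the other 5 libraries at 0.886 to 1.04 times that of control 8. Whether this factor equals the sequencing depth is unknown, because the processing options are not given. Library Pdgfra-cre 23 stood apart, with 9 neutrophil markers summing to 180 FPKM against 11.4 and 18.9 in the other Pdgfra-cre libraries and 1.28 to 11.4 in controls. Most of that sum was S100a8 (94.7), S100a9 (63.9) and Retnlg (17.3), and the other markers lay at 0 to 2.55 FPKM there. Its 10 macrophage markers summed to 65.8 FPKM, against 25.6 and 36.1 in the other Pdgfra-cre libraries and 23.9 to 37.4 in controls. Most of that sum was Lyz2 (28.8) and Cd14 (23.3), and the other markers lay at 0 to 6.14 FPKM there. Among these others Csf1r (0.0564 FPKM) and Cx3cr1 (0.204) were lowest in Pdgfra-cre 23, and C1qa (1.88) was highest there. Its 4 mesothelial markers summed to 46.6 FPKM against 9.39 and 15 in the other Pdgfra-cre libraries and 2.05 to 5.19 in controls, though 1 of them, Wt1, was highest in control 9 (3.85 FPKM). Its 9 epithelial markers summed to 28.5 FPKM, against 6.01 and 16.0 in the other Pdgfra-cre libraries and 1.04 to 11.2 in controls. Most of that sum was Krt18 (12.1) and Krt8 (11.5), and the other markers lay at 0 to 3.06 FPKM there. Among these others Epcam (1.11) and Cdh1 (0.664) were highest in Pdgfra-cre 23. Krt20 and Vil1 were listed at 0 there, and Car1 was higher in Pdgfra-cre 13 (7.73 against 3.06 FPKM). Smooth muscle markers differed in all Pdgfra-cre libraries: 7 genes summed to 759 to 786 FPKM in controls and to 409, 178 and 452 in Pdgfra-cre 13, 23 and 25. Of these genes 7 of 7 were lower without overlap, against 8.29% of all 11429 genes that met the threshold. The part of these cells in the TRIM values was not tested. In sorted bulk samples, fewer cells of a type and less RNA per cell cannot be told apart.

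The family covered a wide range of levels in these cells. Of the 32 expressed members, 10 had a mean of at least 10 FPKM over the 6 libraries, 10 had a mean of 5 to 10 and 12 a mean under 5. Their median of means was 5.52 FPKM, against 10.2 FPKM over all genes that met the same threshold. Of the 34 other members, 14 were listed at 0 in all 6 libraries and 20 were above 0 in at least 1. The count of members at 1 FPKM or more was 31 to 34 per control library and 32 to 35 per Pdgfra-cre library. The summed FPKM of all 66 members was 309, 307 and 327 in controls 8, 9 and 43, and 338, 383 and 336 in Pdgfra-cre 13, 23 and 25.

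**Figure D1:**
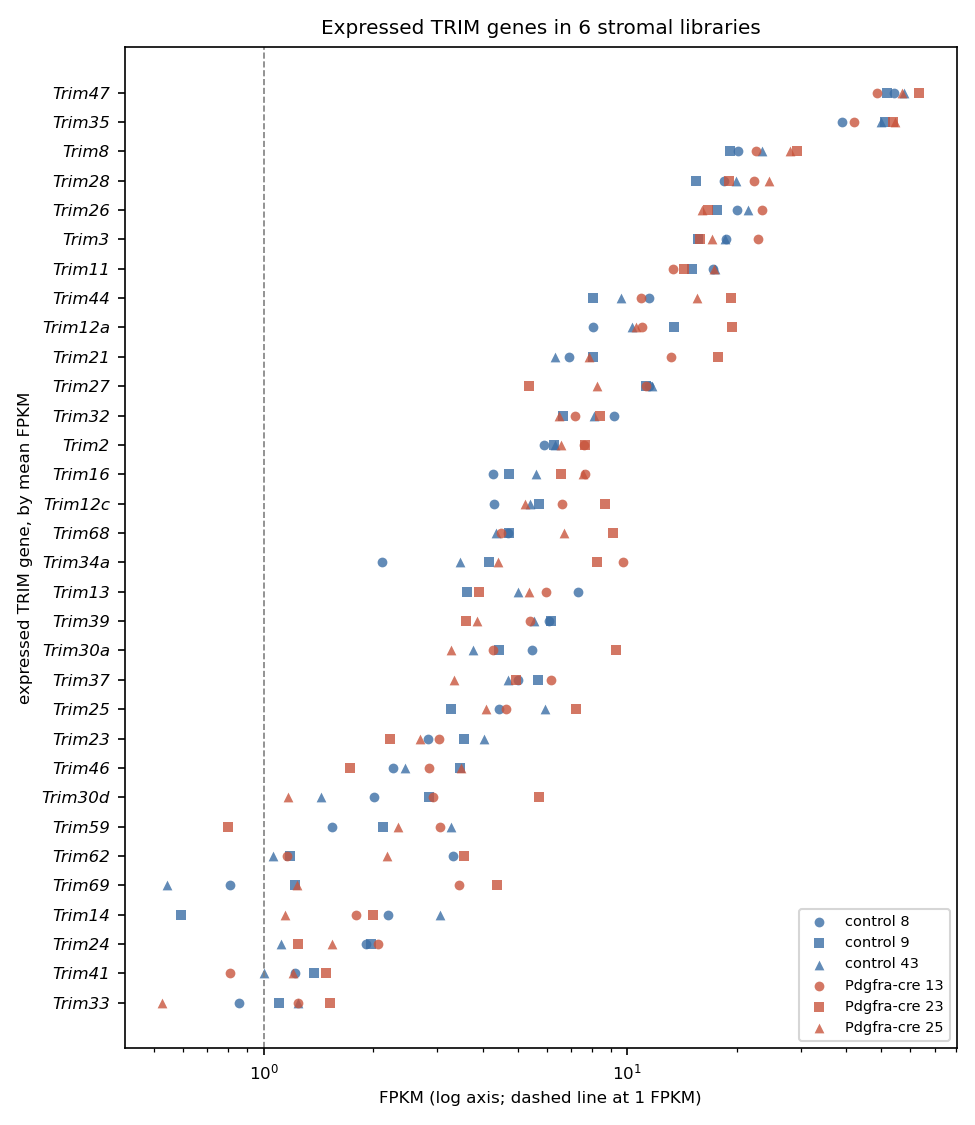
FPKM (log axis) of the 32 expressed TRIM genes, ordered by mean, with 1 point per library (blue, controls; red, Pdgfra-cre; the shape marks the mouse). Trim47 and Trim35 lie at the top, and only Trim69, Trim14, Trim59, Trim41 and Trim33 have points to the left of the dashed line at 1 FPKM.

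In what follows the 6 values of a gene are FPKM in the order control 8, 9 and 43, then Pdgfra-cre 13, 23 and 25. Means are given ± SD with n = 3 mice per group. Differences are log2 fold changes of Pdgfra-cre over control on the log2(FPKM + 1) scale, which understates the change of low genes. Their standard errors (SE), intervals and p values come from limma fitted across all 11429 genes that met the threshold, with Benjamini-Hochberg adjustment over all of them.

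The most abundant member was Trim47, a RING ligase (chromosome 11, 116105752 to 116127210, mm10). Its values were 54.1, 51.8 and 57.7 in controls and 48.7, 63.5 and 57.1 in Pdgfra-cre, which placed it above 85.9% of expressed genes. Trim35, known for binding the glycolytic enzyme pyruvate kinase M2, followed with 38.98, 51.0 and 49.8, then 42.0, 53.7 and 54.5. The groups overlapped in both genes, though Pdgfra-cre 23 and 25 lay above every control in Trim35, and the log2 fold change was 0.04 for Trim47 (-0.06 after rescaling to TPM, in which each library has the same total) and 0.10 for Trim35. Trim47 exceeded Trim35 in 6 of 6 libraries, by the least in control 9 (51.8 against 51.0 FPKM).

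Trim8, which acts on SOCS1 and on NF-kB signalling, had 20.2, 19.2 and 23.5 FPKM, then 22.5, 29.3 and 28.02. Pdgfra-cre 23 and 25 lay above all controls and Pdgfra-cre 13 within their range, with a log2 fold change of 0.33 ± 0.16 (SE; adjusted p = 0.497 in limma). Trim28, the corepressor that KRAB zinc finger proteins bring to DNA to silence retroelements, had 18.5, 15.4 and 20.0, then 22.3, 19.1 and 24.5. Its groups overlapped through Pdgfra-cre 23, and its log2 fold change was 0.28 ± 0.16 (SE; adjusted p = 0.598 in limma). Trim26, encoded in the MHC region of chromosome 17, had 20.0, 17.6 and 21.5, then 23.5, 16.6 and 16.1 FPKM, with the highest and the lowest value both in Pdgfra-cre.

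Trim3, an NHL-repeat member studied mostly in neurons, had 18.7, 15.6 and 18.6, then 22.9, 15.8 and 17.1 FPKM. Trim11, a RING ligase linked to the clearance of misfolded proteins, had 17.2, 15.1 and 17.5, then 13.3, 14.3 and 17.3. Neither separated the groups, and the log2 fold changes were 0.06 for Trim3 (-0.03 after rescaling to TPM) and -0.15 for Trim11. Trim11 varied little over the 6 libraries, with a ratio of highest to lowest value of 1.31. That ratio was 1.29 for Trim2 and 1.30 for Trim47, the lowest in the family, and reached 4.61 for Trim34a, 4.89 for Trim30d, 5.18 for Trim14 and 8.08 for Trim69.

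No TRIM gene passed the test between genotypes. Adjusted over all genes, 0 of 32 tested members passed limma at 0.05, and over all genes 0 of 11429 passed (0%). At an unadjusted p under 0.05 there were 5 members with higher values in Pdgfra-cre (Trim34a, Trim69, Trim21, Trim16 and Trim44) and 0 with lower ones, where 5.47% and 5.49% of all tested genes did so. Of the 5, Trim69 reached 1 FPKM in 1 control and in 3 Pdgfra-cre libraries, so it was tested only through the group where it is high. Fold changes on the log2 scale were above 0 for 18 of the 32 and below for 14, a share of 56.3% against 50.3% of all genes. After rescaling to TPM it was 18 of 35 against 36.6% of all genes. The median was 0.08 for the members and 0.00 for all genes. The 32 are the members above the expression threshold, not the whole family. The lowest adjusted p of any member was 0.277.

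The groups did not overlap in 5 members, 4 with higher values in Pdgfra-cre (Trim34a, Trim69, Trim16 and Trim2) and 1 with lower values (Trim39), where 8.07% of all tested genes lay higher and 8.29% lower without overlap. In either direction this was 15.6% of the members, near the 16.4% of all tested genes. Trim69 is counted here although it met the threshold through the Pdgfra-cre libraries. The 4 became 8 without Pdgfra-cre 13 and 7 without Pdgfra-cre 25. The 1 became 2 without control 8, 3 without control 9, 4 without Pdgfra-cre 13 and 2 without Pdgfra-cre 25. With fewer libraries the groups separate more easily.

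**Figure D2:**
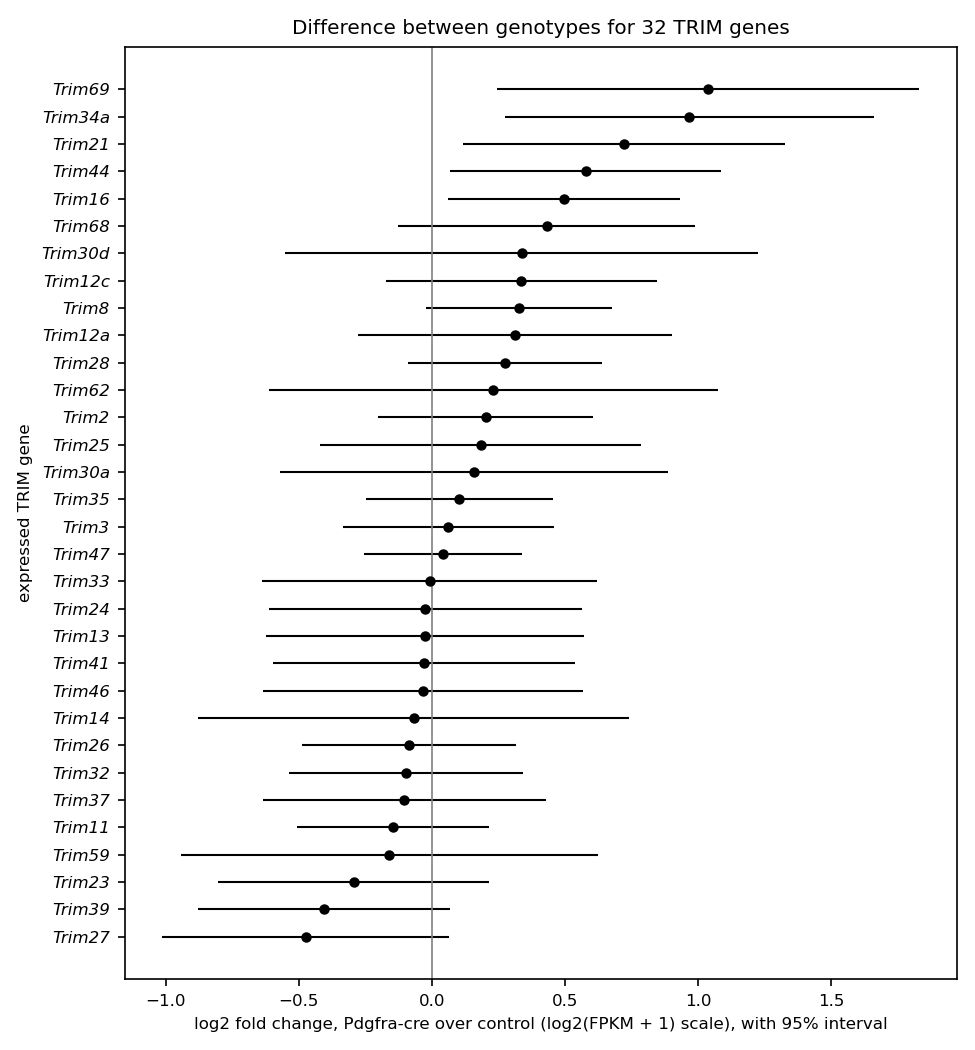
Log2 fold change (Pdgfra-cre over control, log2(FPKM + 1) scale) of the 32 expressed TRIM genes with 95% intervals from limma, not adjusted for the number of genes. The intervals of Trim69, Trim34a, Trim21, Trim44 and Trim16 lie to the right of 0, and none lies to the left.

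Trim34a, an interferon-inducible relative of TRIM5 with a PRY-SPRY domain, had the lowest p of the family (chromosome 7, 104244457 to 104262234). Its values were 2.11, 4.18 and 3.47 FPKM in controls and 9.75, 8.27 and 4.41 in Pdgfra-cre. All 3 Pdgfra-cre libraries lay above all controls, but Pdgfra-cre 25 exceeded control 9 only slightly. The means were 3.25 ± 1.05 and 7.48 ± 2.76 FPKM, and the log2 fold change was 0.97 ± 0.31 (SE; 95% interval 0.28 to 1.66; limma adjusted p = 0.277). Its copy Trim34b, whose longest reading frame is 98.2% identical, was above 0 in Pdgfra-cre 13 alone (0.0790 FPKM), and the division of reads between the 2 is uncertain.

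Trim69, an interferon-inducible member that associates with microtubules and restricts some RNA viruses, lies on chromosome 2 (122160700 to 122179027). It had 0.808, 1.22 and 0.543 FPKM in controls and 3.45, 4.39 and 1.23 in Pdgfra-cre. Pdgfra-cre 13 and 23 were well above all controls, and Pdgfra-cre 25 was above control 9 by a small margin. The means were 0.856 ± 0.339 and 3.03 ± 1.62, with a log2 fold change of 1.04 ± 0.35 (SE; limma adjusted p = 0.305). The gene reached 1 FPKM in 1 of 3 controls and in 3 of 3 Pdgfra-cre libraries, so it met the threshold through the group where it is high. With every library kept, other settings gave 0.44 (pseudocount 5) to 1.596 (pseudocount 0.1) for its log2 fold change. Patl2, which overlaps it on the opposite strand, was listed at 0 in all 6 libraries.

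Trim21 encodes the cytosolic antibody receptor that sends antibody-coated virus to the proteasome (chromosome 7, 102557921 to 102565486). It had 6.92, 8.03 and 6.33 FPKM in controls and 13.2, 17.8 and 7.83 in Pdgfra-cre. Pdgfra-cre 13 and 23 lay above all controls, while Pdgfra-cre 25 fell between controls 8 and 9. The log2 fold change was 0.72 ± 0.27 (SE; limma adjusted p = 0.351), and it was 0.47 without Pdgfra-cre 23.

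Trim16 lacks a RING and takes part in the autophagy of damaged lysosomes (chromosome 11, 62820231 to 62850808). Its values of 4.28, 4.74 and 5.61 FPKM in controls and 7.67, 6.56 and 7.56 in Pdgfra-cre did not overlap. The SD stayed small in both groups (4.88 ± 0.674 and 7.26 ± 0.616 FPKM), and the log2 fold change was 0.50 ± 0.19 (SE; limma adjusted p = 0.373). Unlike Trim34a, Trim69 and Trim21, it was lowest in library 23 among the Pdgfra-cre libraries, and the difference from those genes was not tested. Trim44, which also lacks a RING and carries a ubiquitin-protease-type zinc finger, had 11.5, 8.07 and 9.59 FPKM, then 10.9, 19.3 and 15.5. Here Pdgfra-cre 23 and 25 were above all controls and Pdgfra-cre 13 was not, with a log2 fold change of 0.58 ± 0.23 (SE; limma adjusted p = 0.376). Trim2, an NHL-repeat member that acts on neurofilament light chain, was named after its values were seen because its groups did not overlap: 5.91, 6.28 and 6.32 FPKM, then 7.59, 7.64 and 6.56. Its log2 fold change was only 0.20 ± 0.18 (SE; limma adjusted p = 0.759).

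On the lower side the differences were smaller. Trim27, a ligase of endosomal sorting through the WASH complex, had 11.5, 11.3 and 11.7 FPKM in controls, then 11.3, 5.38 and 8.27. The controls were nearly equal while the Pdgfra-cre libraries spread from the control level to well below it, and the log2 fold change was -0.47 ± 0.24 (SE; limma adjusted p = 0.529). It was -0.23 without Pdgfra-cre 23. Trim39, which stabilises the apoptosis protein MOAP1, had 6.10, 6.19 and 5.53, then 5.40, 3.61 and 3.87 FPKM. Its groups did not overlap, but Pdgfra-cre 13 lay just under control 43, and the log2 fold change was -0.40 ± 0.21 (SE; limma adjusted p = 0.546).

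**Figure D3:**
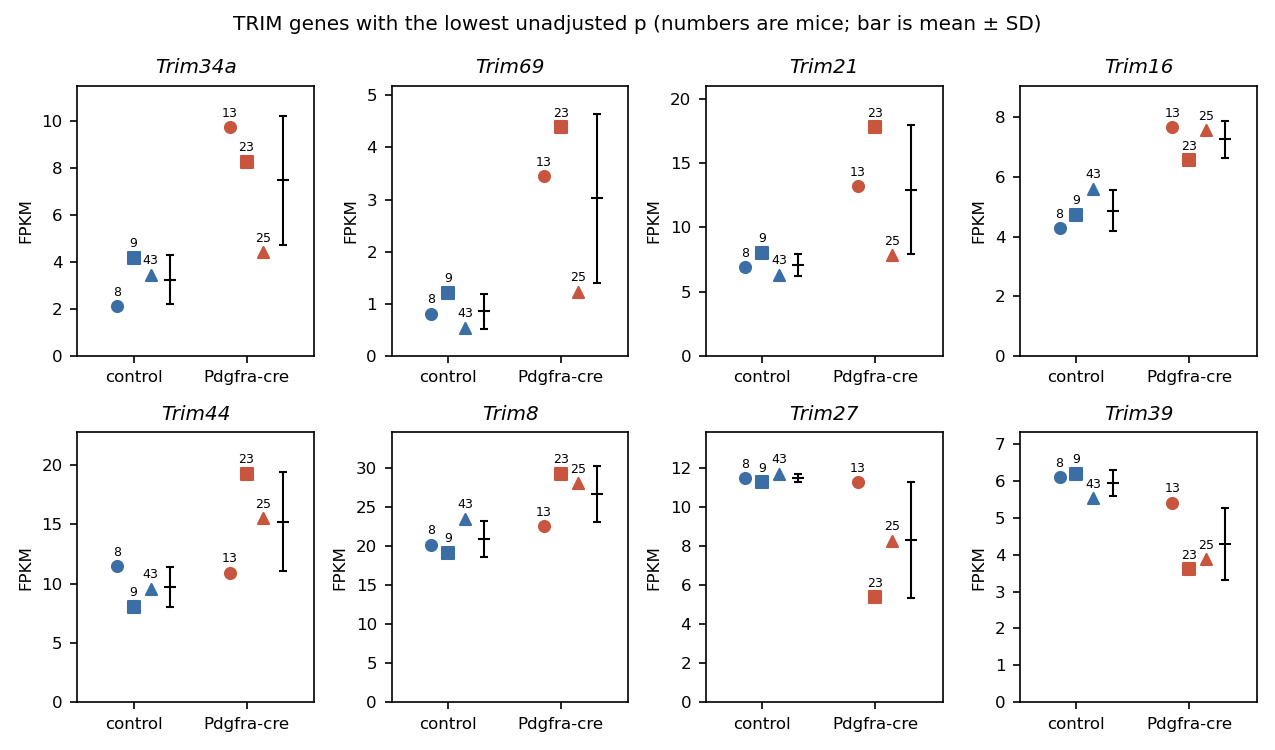
FPKM by library for the 8 TRIM genes with the lowest unadjusted p, with the mouse number at each point and the group mean ± SD (n = 3) beside it. In Trim34a, Trim69 and Trim21 mice 13 and 23 lie high and mouse 25 near the controls, whereas in Trim16 all 3 Pdgfra-cre mice lie together above the controls.

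Of the other members with a log2 fold change below 0, Trim23, whose C-terminal part is an ARF-type GTPase, had 2.84, 3.56 and 4.04 FPKM, then 3.04, 2.22 and 2.69 (-0.29 ± 0.23, SE). Trim32, an NHL-repeat ligase mutated in a limb-girdle muscular dystrophy, had 9.17, 6.64 and 8.09, then 7.19, 8.41 and 6.503 (-0.10 ± 0.20, SE). Both overlapped between the groups. Trim37, a MATH-domain ligase that limits centriole assembly, had 5.01, 5.68 and 4.71, then 6.17, 4.93 and 3.34 FPKM (-0.10 ± 0.24, SE). Trim59, a membrane-anchored member, had 1.54, 2.13 and 3.27, then 3.06, 0.7996 and 2.34 FPKM (-0.16 ± 0.35, SE, and 0.10 with array weights). For these 4 genes the limma adjusted p lay between 0.716 and 0.916.

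Members known to respond to interferon were examined through a list of 16 genes. The list does not hold Trim69, though it is described above as interferon-inducible. Of the 16 listed genes, 9 were expressed. Of these 9, 7 had a log2 fold change above 0 and 2 below, with a median of 0.31 against 0.00 over all genes, and 0 passed (2 at an unadjusted p under 0.05, Trim34a and Trim21). Over all tested genes 50.3% were above 0, and 5.47% were higher and 5.49% lower at an unadjusted limma p under 0.05. These shares stand beside the reference genes and each list that follows. The median rested on Pdgfra-cre 23: without it, 4 of 9 were above 0 and the median was -0.01. The other single libraries left out gave medians from 0.23 to 0.46, and the median was 0.15 with array weights, 0.17 after rescaling to TPM, 0.18 without a threshold and 0.19 with a pseudocount of 5. Summed over the 14 listed genes in the tables, the level was 57.2, 61.3 and 62.2 FPKM in controls and 78.4, 97.3 and 54.8 in Pdgfra-cre, so Pdgfra-cre 25 lay below every control. The summed neutrophil, macrophage, mesothelial and epithelial markers given above were also highest in Pdgfra-cre 23, and their part in this list was not tested. For comparison, 14 reference genes of the interferon response (such as Isg15 and Irf7) summed to 228 to 249 FPKM in controls and to 544, 1245 and 333 in Pdgfra-cre. All 13 tested genes of that reference were above 0, with a median of 1.21, and 0 passed limma (12 at an unadjusted p under 0.05). That median was 0.78 without Pdgfra-cre 23. The direction of that reference list was known from earlier results of these data, so it is context only.

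**Figure D4:**
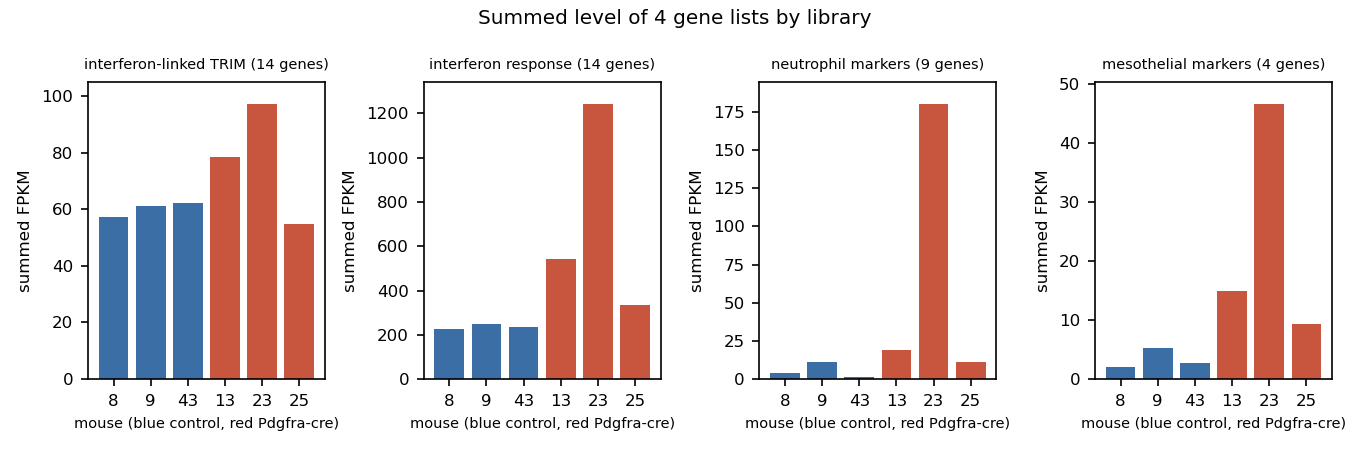
Summed FPKM per library (bars from 0) of the interferon-linked TRIM genes, 14 interferon response genes, 9 neutrophil markers and 4 mesothelial markers. Library 23 is highest in all 4 panels, and library 25 lies below the controls for the TRIM genes (54.8 FPKM) but above them for the interferon response (333 FPKM). The TRIM sum of library 25 leans on Trim26, the most abundant gene of that list (16.1 FPKM there, 17.6 to 21.5 in controls).

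Many interferon-linked members are neighbours on chromosome 7, which holds 14 of the 66 genes. A chromosome 7 list of Trim21, Trim68, Trim3, Trim66 and the relatives of TRIM5 held 12 genes of the tables, of which 8 were expressed. Trim28 and Trim72, also on chromosome 7, were not on it. Of the 8, Trim34a, Trim21, Trim12a, Trim12c, Trim30a and Trim30d are also on the interferon-linked list, so these lists are not independent. All 8 had a log2 fold change above 0 (7 after rescaling to TPM and 7 with array weights), against 50.3% of all tested genes, and 0 passed. Their median was 0.34, and it was 0.17 without Pdgfra-cre 23, where 6 of 8 were above 0 (7 of 8 without control 9 or Pdgfra-cre 13). Trim12a, a mouse relative of TRIM5, had 8.07, 13.4 and 10.3 FPKM, then 11.0, 19.4 and 10.6. Only Pdgfra-cre 23 exceeded the highest control. The log2 fold change was 0.31 ± 0.26 (SE), and it was 0.05 without Pdgfra-cre 23, 0.15 without control 8 and 0.48 without control 9. Trim12c, its neighbour, had 4.29, 5.72 and 5.41, then 6.62, 8.67 and 5.23 FPKM (0.34 ± 0.23, SE, and 0.17 without Pdgfra-cre 23), with Pdgfra-cre 13 and 23 above all controls. The longest reading frame of Trim12a is 96.3% identical to the part of Trim12c it aligns with, so the division of reads between them is uncertain.

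Trim30a, which turns over the adaptors TAB2 and TAB3 downstream of Toll-like receptors, had 5.46, 4.44 and 3.76, then 4.28, 9.31 and 3.28 FPKM (chromosome 7, 104409025 to 104465193). Trim30d, its close copy (90.2% identical in the longest reading frame), had 2.01, 2.84 and 1.44, then 2.91, 5.71 and 1.17. In both genes Pdgfra-cre 23 was the highest library and Pdgfra-cre 25 the lowest of all 6. The log2 fold changes were 0.16 ± 0.32 and 0.34 ± 0.39 (SE), and they were -0.21 and -0.06 without Pdgfra-cre 23. For Trim30a it was also -0.08 with array weights. Another copy, Trim30b, was listed at 0 in every library. Trim68, a ligase known as a cofactor of the androgen receptor, had 4.70, 4.71 and 4.36, then 4.50, 9.13 and 6.70 FPKM (0.43 ± 0.25, SE; limma adjusted p = 0.587). Its controls were close together, and Pdgfra-cre 23 and 25 but not 13 lay above them. The log2 fold change was 0.22 without Pdgfra-cre 23 and 0.66 without Pdgfra-cre 13.

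The remaining interferon-linked members overlapped between groups. Trim25, which ubiquitinates the RNA sensor RIG-I and is a cofactor of the antiviral protein ZAP, had 4.43, 3.27 and 5.94, then 4.64, 7.22 and 4.08 FPKM (0.18 ± 0.27, SE, and -0.02 without Pdgfra-cre 23). Trim14, a member without a RING that acts at the adaptor MAVS, had 2.198, 0.591 and 3.06, then 1.79, 1.9995 and 1.14 FPKM. Control 9 was the lowest and control 43 the highest of all 6, and the log2 fold change was -0.07 ± 0.36 (SE). It was -0.46 without control 9 and 0.21 without control 43. Nans, a more abundant gene at 12.4 to 21.6 FPKM, overlaps Trim14 on the opposite strand, and reads of the 2 cannot be told apart in libraries without strand.

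The sequence before the start site of the expressed members was searched for the core of the interferon-stimulated response element, GAAANNGAAA on either strand (TTTCNNTTTC when read on the other strand). RefSeq windows of 250 bases before each start (GRCm38.p6) were found for 51 members, 25 of them expressed. The core was present in 4 of the 25, which were Trim12c, Trim26, Trim30a and Trim30d, and in 0 of the 26 others. Among all genes with such a window 3.46% held it, and 2.98% of all windows did. Among tested genes with a window the share was 3.14%. A match is a description of the letters only. The 4 windows are shown because their genes belong to the interferon-linked list, with the core in capitals, 5′ to 3′ on the strand of the gene.
Trim30a, chr7:104465194-104465443, minus strand: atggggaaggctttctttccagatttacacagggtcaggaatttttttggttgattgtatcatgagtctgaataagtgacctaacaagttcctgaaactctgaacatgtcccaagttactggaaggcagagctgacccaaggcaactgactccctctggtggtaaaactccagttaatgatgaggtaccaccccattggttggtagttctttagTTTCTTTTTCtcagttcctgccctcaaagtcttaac
Trim30d, chr7:104507850-104508099, minus strand: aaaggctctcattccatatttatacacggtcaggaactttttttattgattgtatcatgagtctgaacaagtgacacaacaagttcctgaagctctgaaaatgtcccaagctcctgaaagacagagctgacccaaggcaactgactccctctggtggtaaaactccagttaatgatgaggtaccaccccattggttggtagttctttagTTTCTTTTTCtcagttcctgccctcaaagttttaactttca
Trim12c, chr7:104353350-104353599, minus strand: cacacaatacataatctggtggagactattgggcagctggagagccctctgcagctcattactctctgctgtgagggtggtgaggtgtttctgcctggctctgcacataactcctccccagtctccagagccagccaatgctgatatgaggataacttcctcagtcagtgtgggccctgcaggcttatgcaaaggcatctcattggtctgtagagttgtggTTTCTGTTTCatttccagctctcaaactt
Trim26, chr17:36836896-36837145, plus strand: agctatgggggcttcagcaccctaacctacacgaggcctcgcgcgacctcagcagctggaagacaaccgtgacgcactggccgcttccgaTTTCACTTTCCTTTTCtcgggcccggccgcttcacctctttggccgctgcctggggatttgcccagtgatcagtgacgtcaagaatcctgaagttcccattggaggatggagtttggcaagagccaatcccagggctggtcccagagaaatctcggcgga

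In Trim30a the core begins 36 bases before the start, in Trim30d 41 and in Trim12c 29, all as TTTC first. Trim26 holds 2 overlapping cores that begin 160 and 154 bases before it. The windows of Trim30a and Trim30d are 92.2% identical over 245 aligned bases and hold the same core (TTTCTTTTTC). None of the 4 genes with a core had an unadjusted limma p under 0.05. Of the members that had, Trim34a, Trim69, Trim21 and Trim44 hold no match in this window, and no window was found for Trim16. The window of Trim34a, the member with the lowest p, is shown for comparison and has nothing in capitals.
Trim34a, chr7:104244207-104244456, plus strand: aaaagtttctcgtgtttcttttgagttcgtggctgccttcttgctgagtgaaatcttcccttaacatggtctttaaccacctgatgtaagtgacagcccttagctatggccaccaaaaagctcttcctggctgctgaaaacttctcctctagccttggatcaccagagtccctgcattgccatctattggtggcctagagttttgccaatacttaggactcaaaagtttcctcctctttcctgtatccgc

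**Figure D5:**
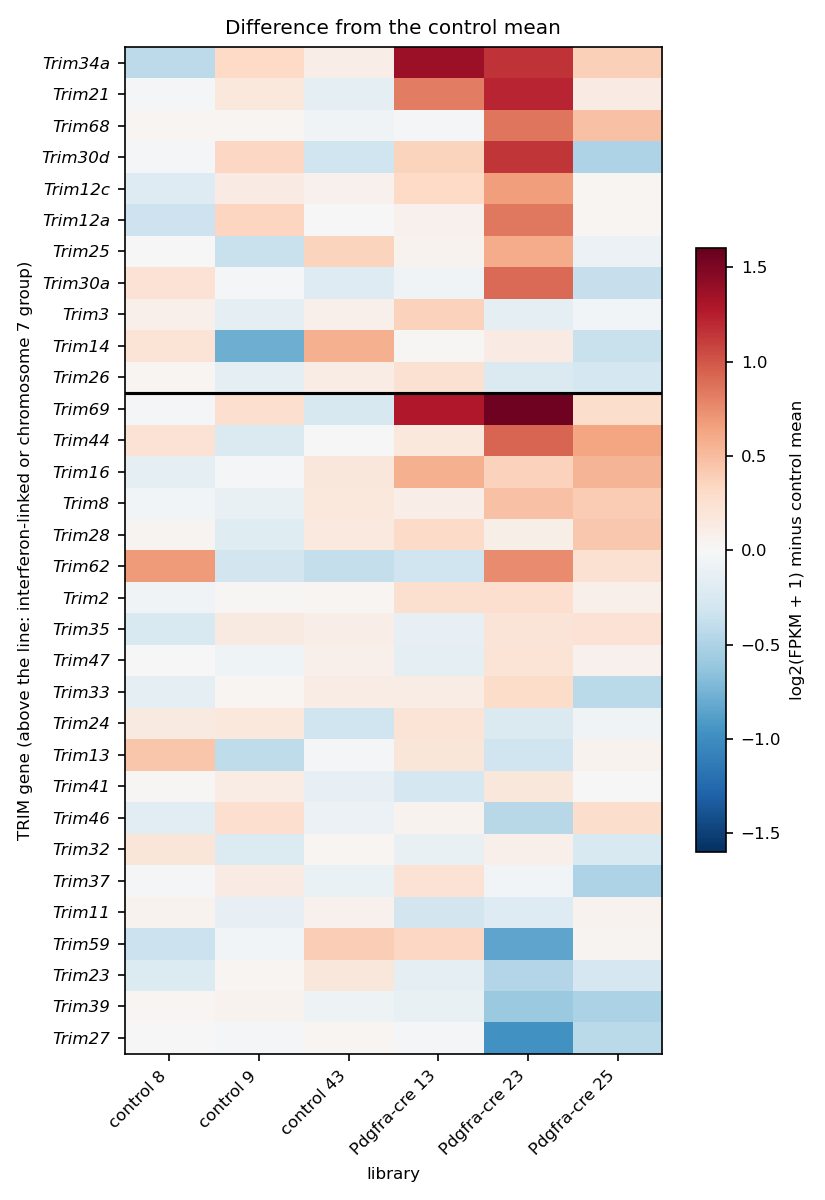
Difference of each library from the control mean on the log2(FPKM + 1) scale (colour, red above and blue below) for the 32 expressed TRIM genes. The 11 genes above the line belong to the interferon-linked or chromosome 7 lists, and within them library 23 is red except in Trim26 and Trim3, while library 25 is pale or blue except in Trim34a and Trim68.

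Across the family, library Pdgfra-cre 23 held the highest value of 15 of the 32 expressed members (46.9%), against 23.7% of all tested genes. It held the lowest value of 5 members (15.6%), against 24.0% of all tested genes. Pdgfra-cre 13 held the highest value of 6 members, Pdgfra-cre 25 of 3, and controls 8, 9 and 43 of 2, 1 and 5. Pdgfra-cre 23 is the library in which the summed neutrophil, macrophage, mesothelial and epithelial markers were highest, with S100a8 at 94.7 FPKM there and 0 to 9.42 in the others. Lymphocyte markers were near 0 in all libraries (10 genes, summed 0.641 to 1.85 FPKM, with Cd8a at 0 throughout).

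Ligases known to act on nucleic acid sensing or NF-kB formed a list of 13, of which 9 were expressed, among them Trim14, Trim21, Trim25 and Trim30a of the interferon-linked list. Of the 9, 4 had a log2 fold change above 0 and 5 below, the median was -0.03 and 0 passed (1 at an unadjusted p under 0.05, Trim21). Trim31, which acts on MAVS, reached 0.197 FPKM in Pdgfra-cre 25 and was listed at 0 elsewhere. Trim38 was above 0 only in control 8 (0.738 FPKM) and Pdgfra-cre 25 (0.237 FPKM).

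By structure, the NHL-repeat members Trim2, Trim3 and Trim32 were expressed and the developmental regulator Trim71 was listed at 0. Of the 4 bromodomain members 3 were expressed: Trim28, Trim24, a nuclear receptor cofactor (1.12 to 2.07 FPKM), and Trim33, a regulator of SMAD4. Trim66 stayed at 0 to 0.212 FPKM. Among 7 members with a microtubule-binding COS box only Trim46, which organises axonal microtubules, was expressed, at 1.73 to 3.49 FPKM. It overlaps Krtcap2 on the opposite strand, which had 255 to 335 FPKM. The 4 members of striated muscle (Trim54, Trim55, Trim63 and Trim72) were at 0 to 0.0931 FPKM in every library. Trim13, a ligase of the endoplasmic reticulum, had 3.61 to 7.31 FPKM and Trim62, a RING ligase with a PRY-SPRY domain, 1.06 to 3.56, and in both the groups overlapped.

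Nearest above the threshold, by the value of the library ranked 3 from the top, were Trim41, Trim69 and Trim33. Trim41 had 1.22, 1.38 and 1.00, then 0.806, 1.49 and 1.20 FPKM, and it overlaps Rack1 (Gnb2l1 in the tables, 156 to 198 FPKM) on the opposite strand. Trim33 had 0.858, 1.11 and 1.25, then 1.24, 1.53 and 0.527. Just outside, by the same measure, were Trim17, Trim65 and Trim56. Trim17, known from neuronal apoptosis, had 0.779, 0 and 0, then 0.713, 1.54 and 0.410 FPKM. Trim65, which ubiquitinates the RNA sensor MDA5 and overlaps Trim47 on the same strand, had 0.699, 0.665 and 0.594, then 1.15, 0.799 and 0.638. Trim56, a regulator of STING signalling, had 0.640, 1.07 and 0.615, then 0.460, 1.21 and 0.558. Exact two-sided permutation tests over the 6 libraries gave p = 0.3 for Trim17, 0.3 for Trim65 and 0.8 for Trim56, where 0.1 is the smallest p that 3 against 3 allow. The highest value of any member that was not expressed was 1.66 FPKM, for Trim36 in control 9, named after its values were seen. Trim36 had 1.23 FPKM in control 8 and 0.122 to 0.395 in the other 4 libraries.

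Of 4 TRIM proteins that carry other symbols 3 were expressed and 0 passed (0 at an unadjusted p under 0.05). Pml, which builds nuclear bodies and is induced by interferon, had 5.34, 6.69 and 5.78, then 6.05, 9.86 and 9.08 FPKM (0.41 ± 0.22, SE; limma adjusted p = 0.560). Mid1, a microtubule-bound ligase of midline development, had 2.23, 2.07 and 3.13, then 1.45, 2.12 and 1.22 FPKM (-0.42 ± 0.25, SE; limma adjusted p = 0.607). Both overlapped between the groups, and Mefv, the pyrin gene of leukocytes, was listed at 0 in all 6 libraries.

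The E2 enzymes with which TRIM ligases work were all expressed. Of 13 in the tables, 9 had a log2 fold change above 0 and 4 below, with a median of 0.09 and 0 passing (0 also at an unadjusted p under 0.05). The most abundant, Ube2d3, a general partner of RING ligases, had 167.5, 183 and 167, then 192, 207 and 160 FPKM. Ube2l6, the interferon-inducible E2 of ISG15, had 84.6, 91.3 and 90.2, then 98.5, 244 and 105 FPKM (0.61 ± 0.29, SE; limma adjusted p = 0.4999). Its groups did not overlap, with Pdgfra-cre 23 far above every other library. Ube2v2, a partner of the K63-chain enzyme Ube2n, had 13.5, 13.2 and 12.9, then 10.01, 9.56 and 11.2 FPKM, also without overlap (-0.34 ± 0.16, SE; limma adjusted p = 0.477).

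Sensors, adaptors and kinases on which TRIM ligases act were expressed in 17 of 17 cases. They had 7 log2 fold changes above 0 and 10 below, a median of -0.06 and 0 passing (1 in each direction at an unadjusted p under 0.05). The most abundant by mean and the lowest in p was Irf7, the transcription factor that amplifies interferon production and also a gene of the reference list, with 15.9, 26.9 and 20.7, then 43.9, 80.6 and 31.2 FPKM (1.176 ± 0.31, SE; limma adjusted p = 0.222). Tab1, a partner of the kinase TAK1, had 11.7, 9.27 and 6.78, then 7.10, 4.74 and 4.84 FPKM (-0.64 ± 0.24, SE; limma adjusted p = 0.368). Irf7 separated the groups and Tab1 did not. The 9 chromatin partners of Trim28 had 1 log2 fold change above 0 and 8 below, a median of -0.09 and 0 passing (0 at an unadjusted p under 0.05). The most abundant of them was the deacetylase gene Hdac1, at 80.3 to 97.5 FPKM over the 6 libraries. The lowest p belonged to Atf7ip, a cofactor of the methyltransferase SETDB1 (10.2 to 16.9 FPKM; -0.31 ± 0.17, SE; limma adjusted p = 0.579), followed by Cbx1, a heterochromatin protein gene (9.34 to 14.8 FPKM; -0.25 ± 0.20, SE; limma adjusted p = 0.725).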

How the data were processed

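Gene-level FPKM were used as deposited by the authors, with 1 table per library for 6 libraries (3 mice per group). Per the labels' protocols, full-length cDNA was made with SMART-Seq HT and libraries with Nextera XT, kits that do not mark strand. The submitters' processing notes name TopHat2 2.1.1, Bowtie2 2.2.8, SAMtools 0.1.18, Cuffdiff 2.2.1 and mm10. Options, annotation release and read totals are not given in the sources used here, so counts were not tested. In limma 3.58.1 (R 4.3.3), log2(FPKM + 1) of the 11429 genes above the threshold (1 FPKM or more, 3 or more libraries) was fitted on genotype with a variance trend and Benjamini-Hochberg adjustment (threshold 0.05). The fit was checked on simulated data. p-values measure the spread between these mice.

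The members follow from their names alone, but the family was picked for description, and the lists were chosen, with earlier results of these data known. Members given by library were the 10 most abundant, the 8 with the lowest p in each direction, the tested members of the interferon-linked and chromosome 7 lists, and the 3 on either side of the threshold. Of each partner list, the most abundant gene and the 2 with the lowest p were given, and Pml and Mid1 were the lowest-p pair of the TRIM proteins with other symbols. Coordinates are from GENCODE M21 (mm10), in which all 66 members matched by name. Reading frames came from its transcripts, and promoter windows from RefSeq (GRCm38.p6). A planned search of the proteins for a RING pattern was not run, and Trim5 and Trim30c were not analysed here. 1 gene planned for the interferon reference list is not reported here, and the list's values were computed without it. Alternatives were 2 pseudocounts (0.1 and 5), no threshold and 5 FPKM, median-of-ratios scaling, quantile normalization, TPM, no trend, a robust prior, array weights and leaving out each library.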

Additional observations from a re-analysis of the deposited data

How the results depend on the processing

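Under the 10 alternatives that kept all libraries and the 6 that left out 1, 0 TRIM genes passed. Over all genes 0 passed under the former and 0 to 31 under the latter (31 without Pdgfra-cre 25). Expressed members numbered 52 without a threshold and 18 at 5 FPKM. Members higher without overlap numbered 2 at 5 FPKM and 2 after rescaling to TPM, and 5 to 8 with 1 library left out. Members lower without overlap numbered 2 without a threshold, 2 with quantiles equalised and 2 in TPM, and 1 to 4 with 1 library left out. Signs and sizes of single genes were followed only for the 27 tested members picked by the rule for members given by library. The sign turned for Trim33 with a pseudocount of 5 (0.0036) and under quantile normalization (0.011), for Trim47 (-0.055) and Trim3 (-0.031) after rescaling to TPM, and for Trim59 (0.10) and Trim30a (-0.078) with array weights. With 1 library left out, the log2 fold change crossed 0 in 12 of these 27 genes. They included Trim35 (-0.018 to 0.22), Trim14 (-0.46 to 0.21), Trim3 (-0.090 to 0.16) and Trim41 (-0.14 to 0.095). Further ones were Trim33 (-0.16 to 0.21), Trim59 (-0.40 to 0.19), Trim47 (-0.046 to 0.14) and Trim25 (-0.022 to 0.36). The rest were Trim30a (-0.21 to 0.42), Trim30d (-0.064 to 0.75), Trim26 (-0.25 to 0.0090) and Trim37 (-0.27 to 0.091). Of the tested members not followed, Trim46 went from -0.03 to 0.17 without Pdgfra-cre 23. Other genes of the 27 kept their sign with 1 library left out but moved by over 1.5 times. Those given above were Trim12a, Trim12c, Trim21, Trim27 and Trim68. The others were Trim28 (0.18 without control 9), Trim11 (-0.072 without Pdgfra-cre 13, -0.25 without Pdgfra-cre 25) and Trim32. Trim32 was at -0.0013 without control 8, -0.21 without control 9, -0.18 without Pdgfra-cre 23 and -0.022 without Pdgfra-cre 25. Settings that kept all libraries also moved some values by as much, such as Trim35 (0.0073 after rescaling to TPM). The cause was not tested, apart from the settings' own construction for the counts. Trim34a (0.58 to 1.15), Trim69 (0.44 to 1.596), Trim21 (0.53 to 0.79), Trim16 (0.31 to 0.57) and Trim44 (0.43 to 0.62) stayed above 0 under the alternatives that kept all libraries and, with 1 left out, from 0.40 to 1.42. No paired analysis was made, because the sample labels used here name no pairs of mice. Where 1 arm had 2 libraries, limma's pooled spread was used. Read totals were not given, so the precision of low members such as Trim41 and Trim33 is unknown.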
